A study of Homo sapiens with 12 samples.

Results

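The genes for the replication-dependent histones were examined in HepG2/C3A cells, a line selected from the liver cancer line HepG2, after exposure to sodium succinate. The members are the protein-coding genes of the RefSeq table (GRCh38.p14) on chromosomes 1 and 6 whose symbol begins with H2AC, H2BC, H3C, H4C or H1-. This rule gave 68 of the 20037 protein-coding genes on the chromosomes, with 13 on chromosome 1 and 55 on chromosome 6. They comprise 6 H1, 17 H2A, 18 H2B, 13 H3 and 14 H4 genes. The rule itself uses symbols and chromosomes and no measured value. One group of cells received 10 mM sodium succinate and the other was the control, which the series' design text alone describes as vehicle, and both were harvested at 48 hours. CUT&Tag, in which an antibody directs a transposase to chromatin, was run with an antibody to histone H3 trimethylated at lysine 27 (H3K27me3) or to succinylated lysine on any protein (Ksu). Of 12 listed samples, 8 were used, with 2 biological replicates for each antibody and treatment, and the 4 IgG samples were not used here. The labels do not say whether the replicates were separate cultures, so p-values measure the spread between these libraries.

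Replication-dependent histone genes supply the core and linker histones that package newly made DNA, and their transcription peaks in S phase. Most lack introns, and their mRNAs end in a stem-loop bound by the protein SLBP in place of a poly(A) tail. They sit in clusters that gather in the nucleus at histone locus bodies, which are organised by the protein NPAT. H3K27me3 is placed by Polycomb repressive complex 2 and marks silent chromatin. H1-6, H2AC1 and H2BC1 are members expressed mainly in the testis.

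The members fell into 5 clusters when neighbours up to 500 kb apart were joined. Chromosome 6 held a cluster of 34 genes (chr6:25726063-26285534), one of 5 genes (chr6:27132316-27147562) and one of 16 genes (chr6:27807479-27893891). On chromosome 1 lay a cluster of 11 genes (chr1:149782689-149887965) and a pair, H2AC25 and H2BC26 (chr1:228457364-228458558). The median gene body was 494.5 bp, and 8 bodies exceeded 1 kb. Each gene was measured over its body with 2 kb either side, called its window. Windows of 56 members overlapped the window of another member, and 11 H2A-H2B pairs were transcribed divergently from starts at most 500 bp apart. Neighbouring genes therefore often share a peak and are not independent.

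Promoter sequences were available for 63 members, in 67 entries, and are shown for the genes on which the results turn. Each line gives the 150 bases before the RefSeq start, 5′ to 3′ on the gene's strand. Capitals mark matches on either strand to 4 motifs. TATAAA is the core of the TATA box and CCAAT is the box of that name. The octamer was searched as ATTTGCAT and the H1 box as AAACACA. In H3C7 the TATAAA matches of the opposite strands overlap. The first 3 genes share one H3K27me3 peak, the next 2 share another, H2AC16 lies under the Ksu peak of highest rank, and the last 2 are near-identical copies without peaks.
H4C7 (chr6:26246997-26247146, minus strand): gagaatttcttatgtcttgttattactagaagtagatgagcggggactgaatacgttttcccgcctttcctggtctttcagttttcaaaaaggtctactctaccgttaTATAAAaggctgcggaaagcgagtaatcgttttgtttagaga
H3C7 (chr6:26250636-26250785, minus strand): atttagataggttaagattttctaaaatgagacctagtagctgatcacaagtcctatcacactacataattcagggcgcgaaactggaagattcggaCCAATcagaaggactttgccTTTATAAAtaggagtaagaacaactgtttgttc
H2BC9 (chr6:26251464-26251613, plus strand): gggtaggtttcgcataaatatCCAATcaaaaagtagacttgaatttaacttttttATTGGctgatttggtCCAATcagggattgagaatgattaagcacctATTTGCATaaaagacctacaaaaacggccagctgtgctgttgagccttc
H3C8 (chr6:26271414-26271563, minus strand): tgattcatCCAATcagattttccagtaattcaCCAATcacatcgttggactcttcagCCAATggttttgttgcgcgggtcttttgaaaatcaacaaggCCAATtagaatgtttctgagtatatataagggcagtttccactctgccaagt
H2BC10 (chr6:26272781-26272930, plus strand): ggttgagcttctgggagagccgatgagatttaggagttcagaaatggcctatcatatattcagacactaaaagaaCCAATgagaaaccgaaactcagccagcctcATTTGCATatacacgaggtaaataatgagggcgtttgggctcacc
H2AC16 (chr6:27865167-27865316, plus strand): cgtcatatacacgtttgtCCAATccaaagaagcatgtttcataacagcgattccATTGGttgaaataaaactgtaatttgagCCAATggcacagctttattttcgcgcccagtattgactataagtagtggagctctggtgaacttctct
H2AC18 (chr1:149842751-149842900, minus strand): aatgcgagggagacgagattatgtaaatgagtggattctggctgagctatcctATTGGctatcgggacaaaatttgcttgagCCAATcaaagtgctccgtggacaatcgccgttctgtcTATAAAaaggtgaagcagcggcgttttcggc
H2AC19 (chr1:149850911-149851060, plus strand): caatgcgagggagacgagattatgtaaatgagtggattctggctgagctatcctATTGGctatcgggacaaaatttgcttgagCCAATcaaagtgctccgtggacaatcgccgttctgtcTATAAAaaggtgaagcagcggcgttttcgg

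Over the 67 entries, CCAAT occurred in 58 (86.6%), against 23.5% of all 35116 promoters in the table. All H1, H2A, H2B and H3 entries held it, and 3 of the 12 H4 entries did. TATAAA was found in 38 entries (56.7%, against 6.71% of all promoters). The octamer was found in 21 of the 67 entries and in 0.988% of all promoters. These were 15 of the 20 H2B, 5 of the 16 H2A and 1 of the 13 H3 entries. The H1 box occurred in 5 of the 6 H1 entries, in no other member, and in 2.71% of all promoters. These matches describe the sequences and were not tested as binding sites.

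The libraries differed in how many peaks they list. H3K27me3 lists held 5531 to 19133 peaks and Ksu lists 76702 to 629903, on the 24 chromosomes. Within each library the highest signal of a peak is a whole multiple of one step, and the lowest total signal of any listed peak, its floor, ranged from 51892 to 330249 steps for H3K27me3 and from 49.0 to 8977 steps for Ksu. Read depth is unknown, so no counting interval is given. Of 6 marker genes of other cell types, 2 carried H3K27me3 in all 4 libraries. The 12 hepatocyte genes checked carried no H3K27me3 peak in any library, and 7 of 8 known Polycomb targets carried one in all 4 libraries.

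H3K27me3 was found at few histone genes, and all of them lay near one end of the large chromosome 6 cluster. Peaks overlapped the windows of 6 and 3 members in control, then 2 and 3 members after succinate, while 25.3%, 14.6%, 21.2% and 16.8% of all protein-coding genes were overlapped. As shares of the members these are 8.82% and 4.41% without succinate, compared with 2.94% and 4.41% with it. For the 468 other genes with a body of at most 1 kb, overlap was seen at 10.5% and 4.91% (control), 8.33% and 6.41% (succinate). The mean number was 4.5 ± 2.12 (SD, n = 2) genes in control and 2.5 ± 0.707 (SD, n = 2) after succinate, a change of -2 against a pooled SD of 1.58 (exact two-sided permutation p = 0.667). With 2 libraries a treatment the test cannot return a p under 0.333, and no treatment difference here could pass 0.05.

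**Figure D1:**
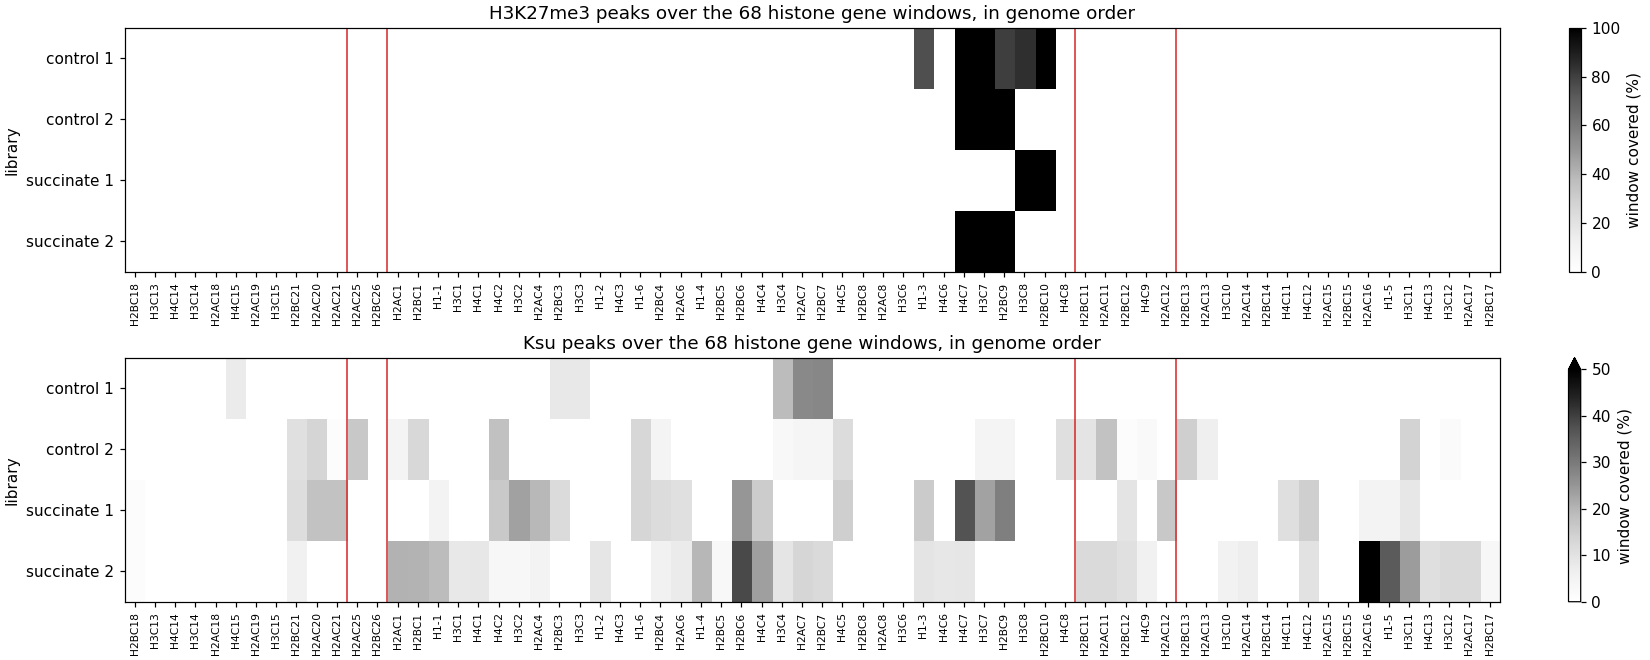
Share of each of the 68 histone gene windows (columns, in genome order, red lines between clusters) covered by peaks, in percent, for each H3K27me3 library (upper panel) and Ksu library (lower panel). The 6 genes with H3K27me3 lie near one end of the large chromosome 6 cluster, while Ksu cover is scattered and differs between libraries.

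The most widely shared H3K27me3 peak covered H4C7, H3C7 and H2BC9, which by symbol belong to the H4, H3 and H2B families. H3K27me3 peaks covered 100% of the H4C7 window in both control libraries, 0% in succinate replicate 1 and 100% in succinate replicate 2. The H3C7 window had the same values. H2BC9 had 80.3% and 100% without succinate, then 0% and 100% with it. Thus 3 of the 4 libraries carried the mark over these genes and succinate replicate 1 stood apart. This pattern occurred at 10 of the 20037 genes, of which these are 3 that share a single peak.

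The peak spanned 10126 bp in control replicate 1, 10683 bp in control replicate 2 and 10007 bp in succinate replicate 2, within chr6:26243071-26254444. Its total signal was 219532 and 243444 steps in control and 377901 steps in succinate replicate 2. A step was 6.18 and 4.72 deposited units in the control libraries and 0.285 in succinate replicate 2. Totals are therefore not comparable between libraries. In rank by total signal it stood at 5413 of 19133 peaks in control replicate 1, 4981 of 5813 in control replicate 2 and 4822 of 5531 in succinate replicate 2. It was thus 4.23, 1.15 and 1.14 times the floor of these libraries, close to the floor in the replicate 2 libraries. The floor of succinate replicate 1, where it was missing, was 132374 steps, and whether the floor accounts for the gap was not tested. With 5531 peaks taken from each library the peak remained in the same 3 libraries. At a common floor, set in steps at 330249, it was listed in succinate replicate 2 alone. That is the floor of succinate replicate 2 itself, which keeps all its peaks by construction. A floor in the deposited signal units was not tried.

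A second peak, within chr6:26268078-26278963, covered H3C8 and H2BC10 in the replicate 1 libraries. Cover of the H3C8 window was 84.5% (control) and 100% (succinate) in the replicate 1 libraries and 0% in both others. The H2BC10 window was covered to 100% in both replicate 1 libraries and 0% in both others. Overlap in both replicate 1 libraries and in neither replicate 2 library was seen at 3.35% of all genes and 1.28% of the other short genes. These peaks were 1.90 and 1.35 times the floors of control and succinate replicate 1, and with 5531 peaks per library neither remained. The linker histone gene H1-3 was covered over 75.5% of its window in control replicate 1 and not in the other 3 libraries, by a peak 1.19 times the floor.

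The other 62 members had no H3K27me3 peak in any library, as did 72.8% of all genes and 87.6% of the other short genes, and none had one in all 4 libraries, as 13.3% of all genes and 3.63% of the short genes did. They include every H2A gene, all 13 genes on chromosome 1, and H1-6, H2AC1 and H2BC1. The nearest miss was at H2BC26, where a peak in succinate replicate 1 (chr1:228460822-228477728) began 264 bp past the window. In control replicate 1 a peak began 2525 bp past it. Between H4C13 and H3C12 a peak lay outside all windows in both replicate 1 libraries, 1849 bp (control) and 2011 bp (succinate) from the window of H4C13.

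**Figure D2:**
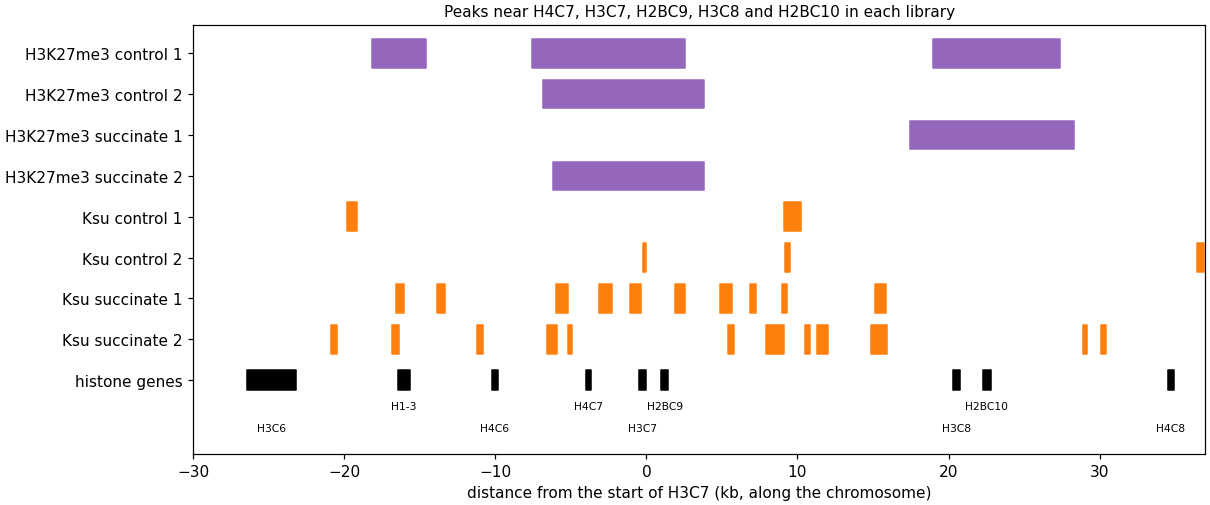
Peaks of the 8 libraries (rows) against distance in kb from the start of H3C7, with the histone genes in black, H3K27me3 peaks in purple and Ksu peaks in orange. The peak over H4C7, H3C7 and H2BC9 is present in 3 H3K27me3 libraries and the peak over H3C8 and H2BC10 in the 2 replicate 1 libraries.

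Of the bases of the joined histone windows, H3K27me3 peaks held 6.38% and 3.36% (control) against 2.30% and 3.36% (succinate). The windows of all genes were covered to 7.39% and 4.78% in the control libraries and 6.60% and 5.55% in the treated ones. The ratio of the former to the latter was 0.863 and 0.702 (control) against 0.349 and 0.604 (succinate), below 1 in all 4 libraries. The ratio was lower in both succinate libraries, with a difference of -0.31 and a pooled SD of 0.151 (p = 0.333 by the exact permutation test). At the common floor, which is that of succinate replicate 2 in steps, it was 0 in 3 libraries and the difference turned to 0.30. This setting keeps every peak of succinate replicate 2 and cuts the other lists, so it cannot decide the direction. In the cluster spans, H3K27me3 covered 3.86% and 1.39% of the bases without succinate, compared with 1.99% and 1.30% with it, and the treatments overlapped.

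In at least 1 library, H3K27me3 peaks were found at 6 members and Ksu peaks, from longer lists, at 52. No member had Ksu in all 4 libraries, and in control replicate 1 each antibody had peaks at 6 members. Ksu peaks overlapped 6 and 24 of the 68 windows without succinate and 26 and 37 with it, or 8.82% and 35.3% against 38.2% and 54.4%. Among all protein-coding genes the shares were 37.8% and 78% in the control libraries and 78.4% and 90.4% in the treated ones. The other genes with a body of at most 1 kb gave 8.97% and 41.7% (control) against 35.5% and 59.8% (succinate), near the shares of the histone genes. The mean number was 15 ± 12.7 (SD, n = 2) in control and 31.5 ± 7.78 (SD, n = 2) in succinate, a difference of 16.5 with a pooled SD of 10.5 (p = 0.333 by the exact permutation test). Control replicate 2 and succinate replicate 1 differed by 2 genes, although the treatments did not overlap. With 76702 peaks taken from each library the numbers were 6 and 4 without succinate, compared with 8 and 2 with it, a difference of 0. At a common floor in steps the difference was 0.5. That floor is the one of control replicate 1, which keeps all its peaks by construction.

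No histone gene was overlapped by Ksu in all 4 libraries, compared with 34.5% of all genes and 2.99% of the other genes of at most 1 kb. There were 8 members with Ksu in 3 libraries, 25 in 2, 19 in 1 and 16 in none. Ksu in every library but control replicate 1 was seen at 7.35% of the members and 31.9% of all genes. Ksu in succinate replicate 2 alone was seen at 16.2% of the members and 5.51% of all genes. The 16 without Ksu are 23.5% of the members, against 5.34% of all genes and 22.9% of the other short genes. At equal numbers of peaks 20 members were overlapped in a single library and none in 2 or more. The share of other genes was not measured at this setting, so these counts are not read as particular to histone genes. Ksu peaks at the histone windows had a median width of 1232 and 375 bp in the control libraries and 622 and 480 bp in the treated ones. Their median total signal exceeded that of 44.4% and 25.4% of the peaks of the control libraries, and 62.2% and 40.2% of those of the succinate libraries.

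Ksu overlapped 12 members in both succinate libraries and neither control library (17.6%, against 7.93% of all genes and 8.76% of the other short genes). None showed the reverse, which 0.12% of all genes and 0.427% of the short genes did. The 12 share peaks in part, as do the neighbours H2AC16 and H1-5, and H3C2 and H2AC4. H2BC6, an H2B gene, had no Ksu cover in control, and 25.0% and 38.6% of its window was covered with succinate. For its neighbour H4C4, an H4 gene, cover was 0% in both control libraries, against 15.3% and 23.6% after succinate. H4C7 likewise went from 0% in each control library to 37.2% and 8.80%. Cover in the succinate libraries was 15.5% and 9.53% for H1-3, 23.2% and 3.10% for H3C2 and 19.5% and 4.95% for H2AC4. It was 14.8% and 9.89% for H4C12 and 4.86% and 18.9% for H1-1, a linker histone gene. H2AC6 had 10.6% and 7.61%, and H2BC18, whose body is the longest, 1.34% and 1.27%. All of these genes were at 0% in control.

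The highest-ranked Ksu peak at any histone window lay over H2AC16, an H2A gene, in succinate replicate 2. It spanned 1714 bp (chr6:27865139-27866852), covered the printed promoter and the gene body, and ranked 337 of 629903 peaks by total signal. The H2AC16 window was covered to 0% in both control libraries, 5.02% in succinate replicate 1 and 51.5% in succinate replicate 2. The values for the linker histone gene H1-5, which the peak reaches at its far end, were 0% in both control libraries, then 4.69% and 35.7%. In succinate replicate 1 the only peak there was 225 bp wide and ranked 277757 of 294568. The size of the signal thus rests on one library.

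The 8 members overlapped in 3 libraries varied in order. Control replicate 1 was the library without Ksu at H2BC21, H4C2, H2BC4, H2BC12 and H3C11. H2BC4 had 0% and 4.68% in control, then 11.7% and 5.58%, and H2BC12 had 0% and 1.19%, then 9.39% and 10.4%, both higher in each succinate library. H2BC21 (0% and 10.6%, then 11.2% and 5.59%), H4C2 (0% and 17.6%, then 15.9% and 2.99%) and H3C11 (0% and 13.7%, then 8.53% and 23.9%) overlapped between treatments. Succinate replicate 1 was the library without Ksu at H3C4, H2AC7 and H2BC7. For H2AC7 and H2BC7, a divergent pair, Ksu covered 27.3% and 27.5% in control replicate 1, 4.21% and 4.25% in control replicate 2, 0% in succinate replicate 1, and 13.2% and 11.9% in succinate replicate 2. H3C4 had 18.9%, 2.92%, 0% and 9.17% in the same order. All 3 were highest in control replicate 1, the library with the fewest Ksu peaks. The testis gene H1-6 was covered to 12.7% in control replicate 2 and 13.1% in succinate replicate 1, and not in the other libraries. H2AC1 was covered to 4.33% in control replicate 2 and 20.5% in succinate replicate 2, and H2BC1 to 12.5% and 20.2% in the same libraries.

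The families were compared by the number of genes overlapped. Ksu reached 0 and 1 of the 6 H1 genes in control and 4 and 5 in succinate. Of 17 H2A genes it reached 1 and 7 (control) against 6 and 8 (succinate). The 18 H2B genes gave 2 and 8 without succinate, compared with 7 and 10 with it, and the 13 H3 genes 2 and 4 against 3 and 6. Among 14 H4 genes it was 1 and 4 against 6 and 8. By this count the treatments did not overlap for H1 and H4, as they did not for all protein-coding genes (37.8% and 78% against 78.4% and 90.4%). By covered share of the windows, none of the 5 families overlapped, and neither did all gene windows (2.44% and 5.57% against 6.68% and 12.0%). H1 had 0% and 2.11% against 6.36% and 15.5%, H2A 1.70% and 3.83% against 4.28% and 7.97%, and H2B 1.13% and 2.48% against 4.90% and 5.07%. The H3 windows had 2.54% and 1.74% against 3.88% and 4.70%, and the H4 windows 1.99% and 2.40% against 6.13% and 4.45%. Differences between families were not tested, since genes of a family share libraries and peaks.

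Over all histone windows, Ksu peaks covered 1.12% and 2.80% of the bases in the control libraries and 5.43% and 6.08% in the treated ones. The difference of 3.80 percentage points exceeded the pooled SD of 0.90 (p = 0.333 by the exact permutation test). All gene windows were also higher, at 2.44% and 5.57% in control against 6.68% and 12.0%. The ratio of histone to all gene windows was 0.458 and 0.502 (control) against 0.813 and 0.505 (succinate), so control replicate 2 and succinate replicate 2 were alike. The difference in ratio was 0.18 with a pooled SD of 0.155 (p = 0.333 by the exact permutation test) and 0.025 without succinate replicate 1. It was -0.23 for gene bodies without flanks and -0.0059 against genes no longer than the longest histone gene. At equal numbers of peaks the cover of the windows differed by 0.20 percentage points.

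The Ksu cover of whole clusters was set beside that of their chromosomes. The 34-gene cluster on chromosome 6 was covered to 2.84% and 3.21% without succinate, compared with 10.3% and 13.0% with it, where all of chromosome 6 was covered to 4.48%, 7.86%, 8.43% and 13.0% in the same order. Relative to the chromosome this is 0.633 and 0.408 in the control libraries and 1.22 and 0.999 in the treated ones, a difference of 0.591 with a pooled SD of 0.159 (p = 0.333 by the exact permutation test). The 16-gene cluster gave 1.12% and 1.92% (control) against 7.43% and 12.4% (succinate), and its ratios were 0.250 and 0.244 against 0.881 and 0.953. For the 5-gene cluster the cover was 0% and 6.15% without succinate, compared with 7.74% and 12.2% with it. All 3 clusters were therefore higher in both succinate libraries. The 34-gene span includes a long stretch without members, from the end of H2BC1 (25727345) to the start of H1-1 (26017032). Joining neighbours up to 200 kb apart leaves it out. All spans together were then covered to 1.36% and 2.06% (control) against 7.12% and 8.41% (succinate). With the stretch they were covered to 2.40% and 2.79% against 8.73% and 11.3%.

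At equal numbers of peaks the 34-gene cluster was covered to 2.84% and 0.475% in the control libraries and 3.74% and 2.57% in the treated ones, and the treatments overlapped. The 16-gene cluster had 1.12% and 0.480% against 2.53% and 1.98%, still without overlap. The 5-gene cluster had 0% and 2.72% without succinate, and 0% in each succinate library.

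The 11-gene cluster on chromosome 1 had similar cover in the treatments. Ksu covered 1.47% and 0.809% of it (control) against 1.61% and 1.21% (succinate), a difference of 0.27 percentage points with a pooled SD of 0.387 (p = 0.667 by the exact permutation test). Cover of chromosome 1 was 1.75%, 4.99%, 5.86% and 10.5% in the same libraries, so the ratio was 0.840 and 0.162 without succinate, compared with 0.275 and 0.114 with it. Of its genes 6 had no Ksu peak in any library (H3C13, H4C14, H3C14, H2AC18, H2AC19 and H3C15, named after their values were seen). No Ksu peak in any library was seen at 5.34% of all genes and 22.9% of the other genes of at most 1 kb. The 6 lie close together and some of their windows overlap, as for H3C14 and H2AC18, so they are not independent. The promoters of H2AC18 and H2AC19 printed above are the same letters offset by 1 base, with 299 of 299 aligned bases identical. The entries of H3C14 and H3C15 were identical over 296 of 296 bases, and those of H4C14 and H4C15 over 300 of 300. Values for these copies are uncertain, because reads from identical stretches cannot be assigned to one copy and the treatment of such reads is not given in the sources used here. The part of this in the low cover was not tested.

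**Figure D3:**
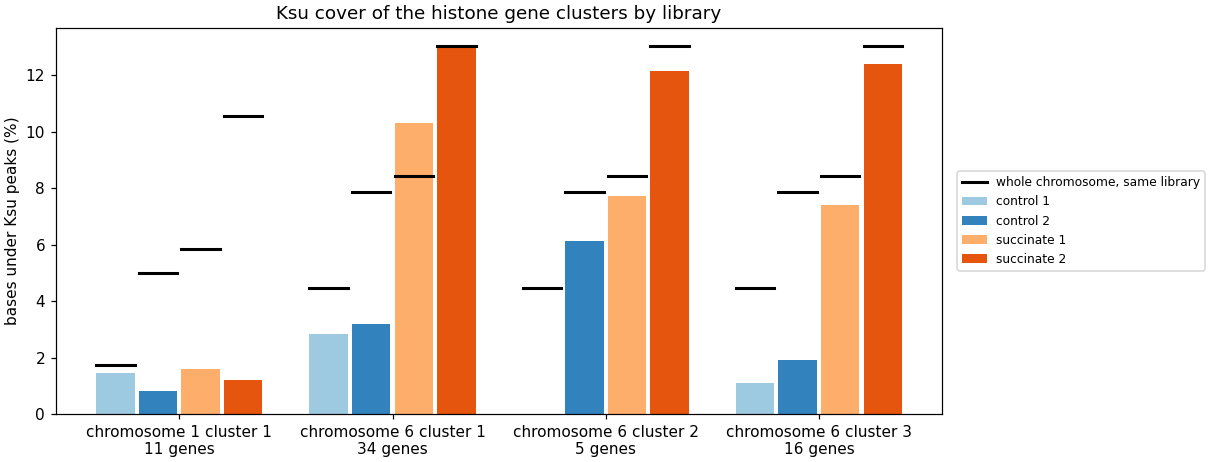
Bases under Ksu peaks, in percent of the span, for the 4 larger histone gene clusters (bars, one per library), with the share of the whole chromosome in the same library as a black line. The 3 chromosome 6 clusters are higher in both succinate libraries, and the chromosome 1 cluster stays between 0.809% and 1.61%.

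Within the spans, Ksu lay more between the histone windows than in them. The bases outside the windows include the long stretch between H2BC1 and H1-1, which holds SLC17A4, SLC17A3, SLC17A2 and TRIM38. Outside the windows cover was 3.01% and 3.07% in the control libraries and 10.4% and 13.9% in the treated ones, above the window values in all 4 libraries. The difference between treatments outside the windows was 9.10 percentage points with a pooled SD of 1.77 (p = 0.333 by the exact permutation test). The other protein-coding genes inside the spans numbered 8, of which Ksu overlapped 3 and 6 in control, then 8 and 6 after succinate. The shares of all genes were 37.8%, 78%, 78.4% and 90.4% in that order. SLC17A4, a membrane transporter gene, was covered by Ksu to 2.65% and 3.33% in control, against 16.4% and 28.7%. For TRIM38, an E3 ubiquitin ligase gene, the values were 0% and 2.49% in control, against 15.4% and 24.9%. SLC17A3 had 9.39% and 7.59% in control, then 11.6% and 8.89%, and its treatments overlapped. FCGR1A (2.05%) and LOC124904411 (3.14%) had Ksu cover in succinate replicate 1 alone. None of the 8 had an H3K27me3 peak in any library, and neither did 72.8% of all genes.

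Cover around gene starts was measured for the 63 members with a known start and 15842 protein-coding genes. Within 1 kb of histone starts, Ksu covered 3.10% and 1.86% of the bases (control) against 7.18% and 5.85% (succinate). For all genes this was 1.37% and 3.89% without succinate, compared with 4.86% and 7.37% with it. Histone starts were thus above all genes in both replicate 1 libraries and below them in both replicate 2 libraries. From 5 to 10 kb away the histone values were 1.73%, 2.29%, 7.53% and 10.0% in the same order, and those of all genes 1.43%, 3.89%, 6.02% and 11.04%. The histone values were again above all genes in the replicate 1 libraries and below them in the replicate 2 libraries, so this order is not particular to the starts. Of 63 printed-length promoters, Ksu peaks overlapped 4 and 1 in control and 4 in each succinate library. That is 6.35% and 1.59% in control and 6.35% in each succinate library, where 1.84%, 6.02%, 6.82% and 10.4% of all promoters were overlapped.

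**Figure D4:**
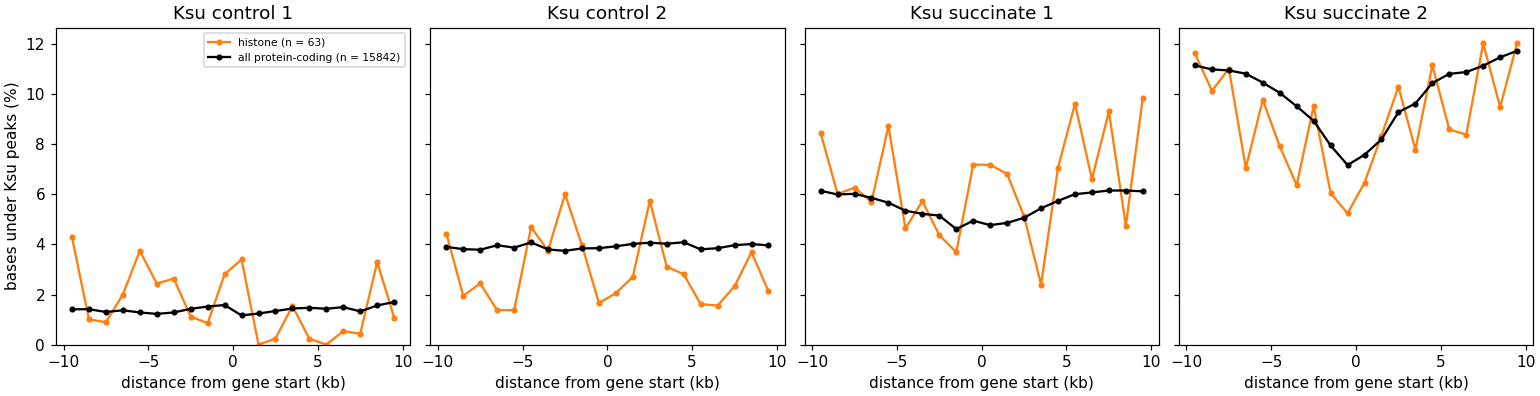
Bases under Ksu peaks, in percent, in 1 kb bins against distance from the gene start in kb, for the 63 histone genes (orange) and 15842 protein-coding genes (black), one panel per Ksu library. All genes dip at the start in the succinate libraries, and the histone line, which rests on few genes, crosses the line of all genes in every panel.

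The marks were compared over the H3K27me3 regions. Of the region holding H4C7, H3C7 and H2BC9, Ksu covered 0% and 1.82% in the control libraries and 26.2% and 8.33% in the treated ones. Succinate replicate 1, with 4 Ksu peaks there, is the label whose H3K27me3 library lacked the region. Over the region of H3C8 and H2BC10 no Ksu library had a peak. The Ksu cover of the H3C7 window was 0% and 4.61% in control, then 22.9% and 0% after succinate, and H2BC9 had 0% and 4.64%, then 29.0% and 0%. The H1-3 region was covered by Ksu to 0% in both control libraries, and 15.3% and 12.6% in succinate.

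Genes that act with the replication-dependent histones were also measured. The 12 replication-independent histone genes, which are expressed outside S phase as well, had no H3K27me3 peak in any library. The same held for 72.8% of all genes. Ksu overlapped 2 and 4 of the 12 in control and 6 and 8 in succinate, while the shares of all genes were 37.8%, 78%, 78.4% and 90.4% in that order. H2AX, the variant phosphorylated at DNA breaks, had 0% in both control libraries and 3.61% and 22.4% after succinate. MACROH2A2, a variant found in silent chromatin, had 0% and 0.927% without succinate, 12.4% and 21.9% with it. H3-3B and H2AZ1, which encode variants H3.3 and H2A.Z, had no Ksu peak in any library.

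The 13 factors of histone transcription and histone mRNA processing likewise had no H3K27me3 peak in any library. Ksu overlapped 7 and 11 of them in control and 12 in each succinate library, an order also seen in those shares of all genes. NPAT was covered by Ksu to 1.26% and 3.0% without succinate and to 3.76% and 11.7% with it. SLBP had 0% and 2.90% in control, 5.63% and 0% after succinate, so its treatments overlapped. CPSF3, the nuclease that cuts histone pre-mRNA, had 3.54% and 2.96% in control, 9.14% and 22.3% after succinate.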

How the data were processed

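The authors deposited 1 peak list per library, called with SEACR on build hg38 per the submitters' processing notes and in stringent mode per the file names. The deposited signal columns give each peak's total and highest signal, and the aligner, scaling, control track and threshold are not given in the sources used here. Peaks on 24 chromosomes were intersected, by 1 bp or more, with RefSeq gene bodies and 2 kb either side (Python 3.11.15, numpy 2.4.6, pandas 2.3.3). Shares of bases count overlapping windows once. Each library's signal step was the unit of which 100% of highest signals are whole multiples within 0.02. The named genes were those with H3K27me3 in any library, those with Ksu in all 4 libraries, the 10 of highest mean cover with Ksu in both succinate and neither control library or the reverse, and fixed lists. Others named were chosen after their values were seen. Treatments were compared by differences of means with exact permutation tests over 6 arrangements. Interval counting was tested on simulated data. The members and lists were chosen with earlier results of these data known. Protein sequences were not used here.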

Additional observations from a re-analysis of the deposited data

Results flagged for a closer look

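The cover of histone windows relative to all gene windows moved in opposite directions for the antibodies. For H3K27me3 the ratio was lower in both succinate libraries (difference -0.31), and for Ksu it was higher in both (difference 0.18). The signed Ksu difference minus the signed H3K27me3 difference was 0.48, and the Ksu difference was the smaller in size. An exact permutation test over the arrangements within each antibody gave p = 0.0556, the smallest it can give. It is 1 of 4 measures compared in this way, and the differences of all 4 had opposite signs for the antibodies. The ratio is given here as the only one whose treatments overlapped for neither antibody. For the other 3 the H3K27me3 treatments overlapped, and each gave p = 0.111 by the same exact test. The Ksu values of control replicate 2 (0.502) and succinate replicate 2 (0.505) nearly met. The H3K27me3 direction turned at a common floor in steps, a setting that cuts every list except that of succinate replicate 2. The Ksu direction turned for gene bodies without flanks (-0.23) and against genes no longer than the longest histone gene (-0.0059). At equal numbers of peaks the Ksu difference was 0.018. The cause was not tested.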

How the results depend on the processing

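Of 90 alternative values for 8 results, leaving out the replicate block, 82 kept their direction, 7 changed it and 1 became 0, and since no p could pass 0.05 these are statements on values. At a common floor the H3K27me3 difference became 1.5 genes and 1.68 percentage points of the windows. It became 0.65 percentage points of the spans and 0.30 in the ratio. These values rest on the peak over H4C7 in succinate replicate 2. The floor, in steps, is that library's own, so the setting cannot decide the direction. Without control replicate 1 the H3K27me3 span difference was 0.26, and leaving out control replicate 2 gave -2.21, the other extreme of the libraries omitted singly. The Ksu ratio difference was -0.23 without flanks and -0.0059 against genes no longer than the longest histone gene. At equal numbers of peaks the difference in histone genes with Ksu was 0. The cause of these changes was not tested.

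Leaving out each replicate gave H3K27me3 differences from -3.5 to -0.5 genes, -3.55 to -0.53 percentage points of the windows and -0.43 to -0.18 in the ratio. For Ksu they ran from 7.5 to 25.5 genes (omitting control replicate 1 and control replicate 2, respectively), 2.96 to 4.64 percentage points of the windows, 6.13 to 8.71 of the spans and 0.025 to 0.33 in the ratio. With the replicate number as a block the differences are the same by construction, such as 16.5 genes for Ksu (exact p = 0.5, the smallest that 2 pairs allow), and no call changed. Deviations of same-numbered libraries correlated at 0.35 (H3K27me3) and 0.10 (Ksu) across 20037 genes, which are not independent, and 2 pairs do not settle whether the numbers mark a shared source. The comparison with other genes of at most 1 kb was chosen after seeing the data. The floors differ between libraries, so a missing peak is not evidence that the mark is absent.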
